A study of Rattus norvegicus with 2 samples.

Results

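The cells described here carried transcripts of the cell cycle and few or none of the epithelium. They were chosen by 4 values: over 2000 unique molecular identifiers (UMIs, each standing for 1 captured transcript), at most 40% of UMIs from mitochondrial genes, at least 2 UMIs of Mki67 and Top2a together, and at most 10 UMIs of Epcam, Krt8, Krt18, Krt19 and Krt20 together. By these limits 143 of 20285 barcodes were cycling non-epithelial cells, 31 of 12033 in rat 1 and 112 of 8252 in rat 2. Within the limits on UMIs and mitochondrial share lay 7331 barcodes of rat 1 and 4679 of rat 2. Because Mki67, Top2a and the 5 epithelial genes selected the cells, their levels are given only as a description.

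Both animals were male Sprague Dawley rats of 6 to 8 weeks, given as 180 to 200 g on the sample labels and as 150 to 200 g in the series description. They were fasted overnight, received no treatment, and gave 1 library each from the proximal jejunum. The tissue was loosened with EDTA and dispase, captured by droplet 3′ sequencing, and labelled as epithelium. The deposited matrices held 99986348 UMIs for rat 1 and 66469907 UMIs for rat 2. With 1 library per rat, an animal and its library cannot be told apart, and the Cell Ranger release in the file headers differed too (3.1.0 against 5.0.1). Every interval below is an exact 95% interval that covers counting error only, and no test was made between groups of cells.

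The intestinal epithelium holds resident lymphocytes, most of them T cells that sit between epithelial cells and carry cytotoxic granules. Organised lymphoid follicles of the gut wall hold B cells, which divide in germinal centres. Mki67 marks cells in cycle, Top2a untangles DNA before mitosis, and Ptprc encodes CD45, a surface phosphatase of nearly all leukocytes.

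The selected cells were smaller libraries than the cycling epithelial cells, which passed the same limits but held over 10 epithelial UMIs. Their median was 2773 UMIs in rat 1 and 6355.5 in rat 2, against 15949.5 and 25005 in the 1438 and 109 cycling epithelial cells. Mki67 and Top2a together had a median of 2 UMIs in rat 1 and 13 in rat 2, and of 5 and 3 in cycling epithelial cells. The cells of rat 2 thus lay well inside the cycling limit, while 16 of the 31 cells of rat 1 sat exactly on it. Only 8 of the 112 cells of rat 2 did so. The median share of mitochondrial UMIs was 6.68% in rat 1 and 9.69% in rat 2.

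The description of these cells as lacking epithelial transcripts holds only within the limit of 10 UMIs. A median of 4 epithelial UMIs remained in rat 1 and 1 in rat 2, and 25 of the 143 cells had none. Non-cycling leukocytes, which are cells with a Ptprc UMI, no Mki67 or Top2a UMI, at most 10% hemoglobin and the same epithelial limit, had medians of 2 and 1. Fabp1, an abundant fatty acid carrier of enterocytes, gave a UMI in all 31 cells of rat 1 and in 102 of 112 of rat 2. It did so in 228 of 228 and 1630 of 1837 non-cycling leukocytes as well, at median depths of 2335.5 and 3379 UMIs. Thinned to 2000 UMIs, Fabp1 was seen in 30 of 31 and 56 of 112 selected cells against 226 of 228 and 1313 of 1837 non-cycling leukocytes, so at equal depth the selected cells of rat 2 held it less often.

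The cells on either side of the limits differed between the rats. In rat 1 none of the 3 selected cells with 8 to 10 epithelial UMIs and none of the 4 cells with 11 to 13 had a Ptprc UMI. In rat 2 the corresponding cells were 1 of 1 and 1 of 2. Just under the cycling limit, cells with exactly 1 UMI of Mki67 and Top2a numbered 43 in rat 1 and 91 in rat 2, of which 17 and 76 had a Ptprc UMI. In the next band under 2000 UMIs lay 6 and 2 cells that met the other limits, and in the next band over 40% mitochondrial UMIs 8 and 1.

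**Figure D1:**
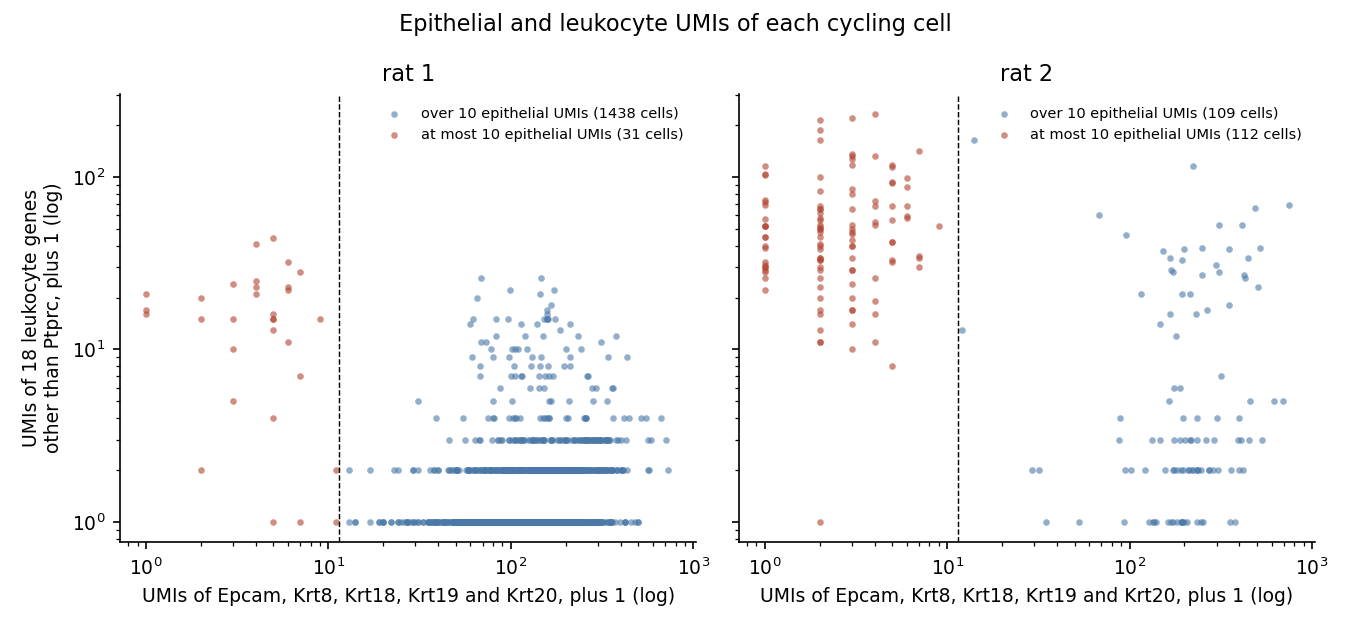
UMIs of the 5 epithelial genes that set the limit (x axis, log scale, plus 1) against UMIs of 18 leukocyte genes other than Ptprc (y axis, log scale, plus 1), 1 point per cycling cell, with the limit of 10 epithelial UMIs dashed. The 112 cells left of the line in rat 2 had a median of 46.5 leukocyte UMIs and the 31 in rat 1 a median of 14, with 5 cells of rat 1 and 1 of rat 2 under 2 leukocyte UMIs.

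Most of the selected cells were leukocytes by genes that took no part in choosing them. A Ptprc UMI was present in 19 of 31 cells in rat 1 (61.3%, interval 42.2 to 78.2) and in 103 of 112 in rat 2 (92.0%, 85.3 to 96.3). In cycling epithelial cells, which served as the comparison and were far deeper at the median, the shares were 3.13% and 9.17%. After every cell was thinned to 2000 UMIs the shares were 48.4% and 70.5% in the selected cells and 0.487% and 2.75% in cycling epithelial cells. At least 2 leukocyte genes other than Ptprc were seen in 24 of 31 and 111 of 112 cells.

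Not all cells of rat 1 met that description. Of the 13 cells of rat 1 that the marker genes left unplaced, 3 held fewer than 2 leukocyte UMIs and no Ptprc UMI. They had 10, 10 and 6 epithelial UMIs, at or near the limit, and mitochondrial shares of 19.0%, 38.8% and 36.8%. The label of cycling leukocytes thus fits rat 2 more fully than rat 1.

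Doublets were scored with Scrublet, which marked 146 of 7331 barcodes in rat 1 (1.99%) and 4 of 4679 in rat 2 (0.0855%). The caller did not work in rat 2. It marked 2 of the 31 selected cells in rat 1 and none of the 112 in rat 2, and no cell was removed on its account. The 2 libraries shared 28 barcode sequences, 1 of them among the selected cells of rat 2 and 0 among those of rat 1.

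The selected cells made up 2.11% of cycling cells in rat 1 (interval 1.44 to 2.98) and 50.7% in rat 2 (43.9 to 57.4). The rats differed both in their cycling epithelium and in the number of leukocytes captured. In the epithelium, 1438 of 6599 epithelial cells passed the cycling limit in rat 1 (21.8%, 20.8 to 22.8) and 109 of 1881 in rat 2 (5.79%, 4.78 to 6.95). Among cells with a Ptprc UMI, at most 10 epithelial UMIs and at most 10% hemoglobin, 18 of 263 (6.84%, 4.11 to 10.6) and 102 of 2014 (5.06%, 4.15 to 6.11) passed it, and these intervals overlapped. Those 263 and 2014 cells stood among 7331 and 4679 barcodes. A fixed number of UMIs is easier to reach in a deep library, and with the cycling limit applied after thinning to 2000 UMIs the shares of selected cells became 5.23% and 81.7%. At a minimum of 5000 UMIs they were 0.214% and 40.9%, with only 3 selected cells left in rat 1. At 4 or more UMIs of Mki67 and Top2a the shares were 1.26% and 72.5%, and with the epithelial limit scaled to depth the share in rat 1 was 0.885%. The study's stated limits on genes, UMIs and mitochondrial share, applied here, left 8218 of the 20285 barcodes, among them 3 selected cells of rat 1 and 71 of rat 2. The study then also removed every cluster with expression of Ptprc or hemoglobin. That step was not repeated here, so these cells are not shown to be part of its final set.

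Lineage was read from short marker lists, with each cell assigned to the list that held at least 3 UMIs and at least 2 times the UMIs of the next. T-like cells, placed by the T-cell receptor chains Cd3d, Cd3e, Cd3g and Cd247, numbered 77 of 143. They were 13 of 31 in rat 1 (41.9%, interval 24.5 to 60.9) and 64 of 112 in rat 2 (57.1%, 47.4 to 66.5). B-like cells, with Cd79b and Ms4a1 among the genes that placed them, numbered 9 and all came from rat 2. Another 46 cells, 13 and 33, reached no list and remained unnamed. Hemoglobin exceeded 10% of UMIs in 7 cells, 3 cells of rat 2 were mixed between lists, and 1 cell of rat 2 was placed by Prdm1 alone and is not named.

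No selected cell was placed as myeloid, mast or stromal, and the defining genes of those lineages were near 0. The stromal markers Col1a1, Col1a2, Col3a1, Cdh5 and Kdr and the mast cell markers Cpa3, Fcer1a and Ms4a2 had 0 UMIs in both rats. The 8 myeloid markers summed to 1 UMI in rat 1 and 3 in rat 2, with Csf1r, the macrophage growth factor receptor, at 0 in both. Among non-cycling leukocytes of rat 2, 21 of 1837 were placed as myeloid, and of 23 myeloid-placed cells with a Ptprc UMI there 0 passed the cycling limit (exact upper limit 14.8%, while 3 counts would be 3 of the 23). At these numbers a low cycling share of myeloid cells was not detectable.

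Within rat 2 the cycling limit was also counted by lineage. It was passed by 61 of 1190 T-like cells with a Ptprc UMI (5.13%, 3.94 to 6.54), 28 of 635 unplaced cells (4.41%, 2.95 to 6.31) and 9 of 142 B-like cells (6.34%, 2.94 to 11.7). In rat 1 the T-like share was 11 of 217 (5.07%, 2.56 to 8.89), close to that of rat 2, and 7 of 40 unplaced cells passed (17.5%, 7.34 to 32.8). The intervals of the 3 classes overlapped in rat 2, and those of the unplaced cells did not overlap between the rats. Differences between classes or rats were not tested.

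**Figure D2:**
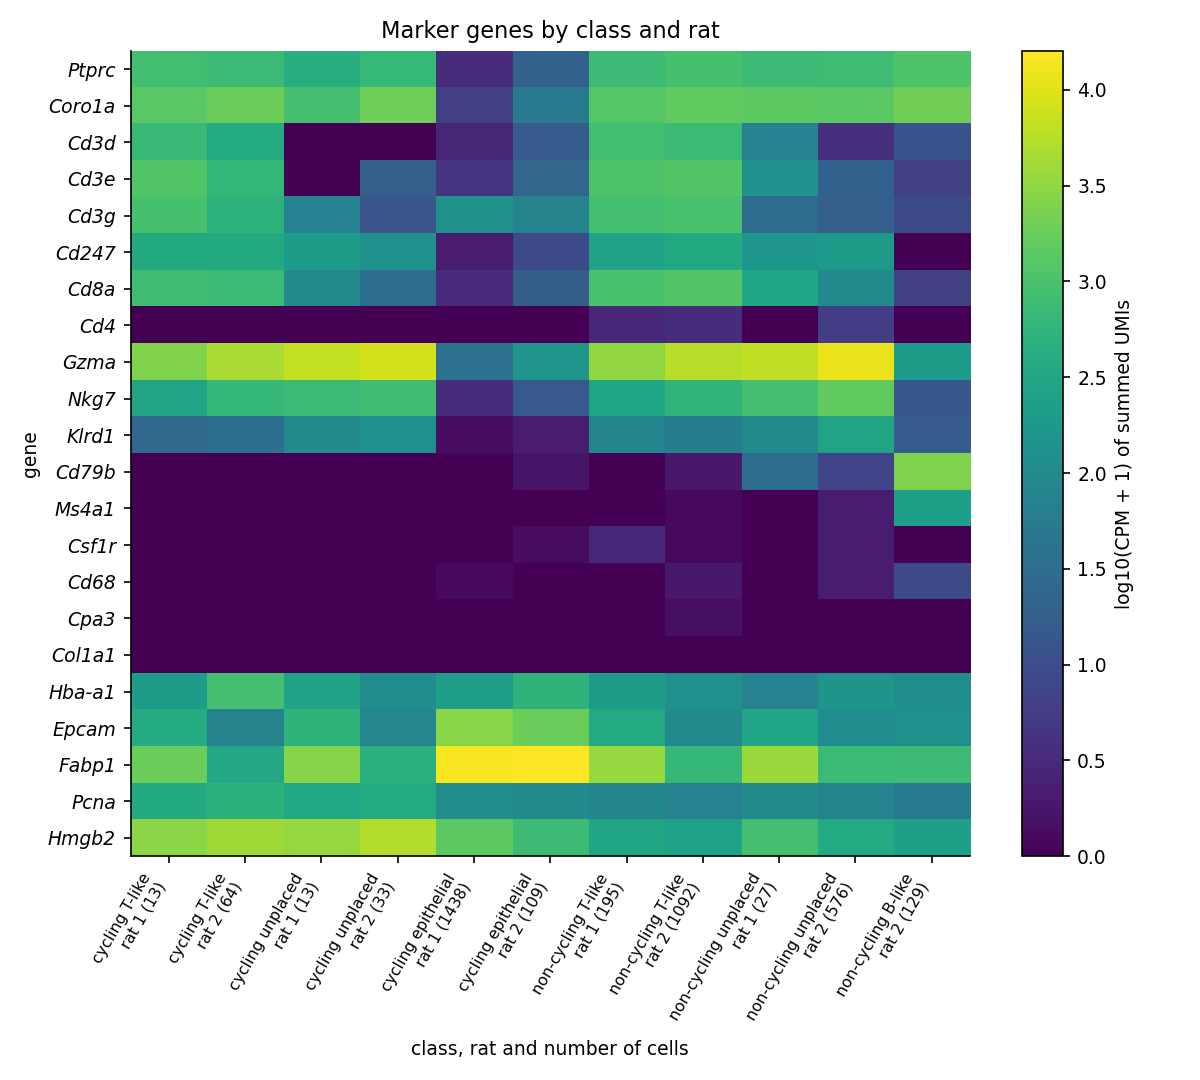
Levels of 22 marker genes (rows) in classes of cells of each rat (columns, with the number of cells), as the log10 of CPM plus 1 (CPM, counts of a gene in the summed cells scaled to 1000000 UMIs). Cd3d and Cd3e are dark in the cycling unplaced cells, Cd79b and Ms4a1 are bright in the non-cycling B-like cells, Gzma is bright in T-like and unplaced cells, and Cd4 has 0 UMIs in the selected and the cycling epithelial cells; classes with fewer than 10 cells are not drawn.

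The T-cell genes need care in this tissue because Cd3g was not restricted to T-like cells. Cycling epithelial cells had a Cd3g UMI in 58.7% (rat 1) and 41.3% (rat 2), and in 20.7% and 11.9% after thinning, while a UMI of Cd3d or Cd3e was found in 3.89% and 8.26%. Summed levels there were 146 and 73.9 CPM for Cd3g, against 1.87 and 15.6 CPM for Cd3d. In the selected cells Cd3g stood at 400.5 and 324 CPM beside 280.3 and 237 CPM of Cd3d. The ratio of the CD3 genes thus differed between the groups, and Cd3g alone does not mark a T cell here.

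Placed by Cd3d and Cd3e alone, T-like cells fell to 10 of 31 in rat 1 and 43 of 112 in rat 2. The same change took cycling epithelial cells placed as T-like from 498 to 24 in rat 1 and from 27 to 6 in rat 2. All 13 T-like cells of rat 1 had a UMI of Cd3d or Cd3e. In rat 2 these were 46 of 64, with 7 others holding Cd3g, and 11 placed by Cd247 alone. Cd247, the zeta chain, is also used by natural killer cell receptors, so the lineage of those 11 cells rests on 1 gene.

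The comparison with cycling epithelial cells took the ratio of summed CPM in each rat and called a gene past the limit at 4-fold in both. It covered 2345 genes with a mean of at least 50 CPM in each rat. Of these, 173 were higher in the selected cells (7.38%) and 154 were lower (6.57%). Scaling by trimmed mean of M values (TMM), which assumes that most genes do not differ, moved the split to 129 higher and 260 lower. The number lower fell to 55 at 4 or more UMIs of Mki67 and Top2a, 65 with the cycling limit after thinning and 85 with the epithelial limit scaled to depth. Each rat on its own called more genes, so the counts depend on both: rat 2 alone gave 450 higher and 422 lower, and rat 1 alone 229 and 205.

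The median log2 ratio over all genes was -0.16 in rat 1 and 0.43 in rat 2, and lists are read against these values. Under TMM it was -0.56 and -0.26. Without mitochondrial and hemoglobin genes it was -0.13 and 0.26, and as a mean over cells -0.11 and 0.29. The median directions given below for the leukocyte, cytotoxic, epithelial and cell cycle lists were the same under all 4 scalings.

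Common leukocyte genes stood far above the epithelium. Summed over all 19 measured, whatever their level, they were at 5286 and 8240 CPM against 53.2 and 507. The level needed for comparison is met through either side, so genes low on both sides drop out of the tallies here and below. A gene scarce in cycling epithelial cells can reach it only through the selected cells, and its ratio is then high because of that rule. Of the 12 compared, 11 were past 4-fold (median log2 ratio 7.59 in rat 1 and 5.18 in rat 2). With the cycling limit applied after thinning, 10 of 12 were (7.47 and 3.16). These counts and medians are largely set by the level rule and are given as description. The sums over all 19 genes were not filtered by level. Ptprc was at 541 CPM in rat 1 and 704 in rat 2, against 2.42 and 19.2 in cycling epithelial cells. Coro1a, an actin regulator of leukocytes, was at 961 and 1916 CPM against 5.28 and 54.7, a ratio of 182 (139 to 237) in rat 1 and 35.0 (29.7 to 41.6) in rat 2. The exception was Ptpn6, a phosphatase shared with epithelia, with ratios of 10.6 and 2.66. In rat 2 the epithelial side held more leukocyte UMIs: 43.1% of its cycling epithelial cells had at least 2 leukocyte genes, against 9.60% in rat 1. Doublets or free RNA as a source were not tested.

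The cytotoxic genes of intraepithelial lymphocytes were also set apart. All 24 measured summed to 13516 and 17651 CPM against 159 and 544. The 12 of them compared were all past the limit (medians 7.30 and 5.03), as were 12 of 14 with the cycling limit applied after thinning (6.93 and 2.91). Here too the level needed for comparison favours genes high in the selected cells. These counts and medians are therefore given as description, while the sums over all 24 genes were not filtered by level. Gzma, a granule protease, reached 4065 and 4880.0 CPM against 36.2 and 156 in cycling epithelial cells. The chemokine Ccl5 was at 3264 and 3954 CPM against 48.5 and 141, and the lymphocyte surface protein Cd7 at 1962 and 2777 CPM against 14.9 and 96.2. The signalling adaptors Fcer1g and Tyrobp, which serve natural killer receptors, stood at 1011 and 1020.1 CPM and at 941 and 721 CPM, against at most 29.8 CPM in cycling epithelial cells. Itgae, the integrin that binds lymphocytes to epithelial cadherin, had the smallest ratios of the list, 6.96 (3.87 to 11.6) and 12.4 (8.83 to 17.7).

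Gzma was also seen cell by cell. It gave a UMI in 64.5% of the selected cells of rat 1 and 86.6% of rat 2, and in 14.5% and 30.3% of cycling epithelial cells. Thinned to 2000 UMIs, these shares were 64.5% and 82.1% against 4.52% and 9.17%.

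The T-cell genes followed the same order. Cd3e was at 451 and 399 CPM against 3.23 and 23.1, and the co-receptor Cd8a at 360.4 and 453 CPM against 2.20 and 16.7. Lck, the kinase that starts signalling from the T-cell receptor, was at 280.3 and 459.6 CPM against 2.57 and 14.6. All 18 receptor kinases and adaptors measured summed to 981 and 1381 CPM against 87.2 and 170. Cd8a was detected in 41.9% of the selected cells of rat 1 and 35.7% of rat 2, and in 2.85% and 10.1% of cycling epithelial cells. Thinned, the Cd8a shares were 35.5% and 28.6% against 0.487% and 2.75%.

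Cd4, the co-receptor of helper T cells, was not seen in any of the 143 cells. The exact upper limits for the share with a Cd4 UMI are 11.2% in rat 1 and 3.24% in rat 2, and 3 counts would make 9.68% and 2.68%. Non-cycling leukocytes had one in 1.32% and 0.980%. No gene of the helper and regulatory list reached the level needed for comparison, and Foxp3, the factor of regulatory T cells, also had 0 UMIs. Il2ra was its most abundant gene, with 4 UMIs in rat 1 and 68 in rat 2.

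Ranked by the smaller of the 2 rats' log2 ratios, the first 10 of the higher genes were Xcl1, Faslg, Cd37, Bcl2, Emp3, Cd244, Klri1, Msn, Il2rg and Grap. Xcl1, a chemokine that draws cross-presenting dendritic cells, was at 280.3 and 1073 CPM against 0.367 and 3.55. One cell held 650 of its 915 UMIs in rat 2 (71.0%), so the level of Xcl1 there is mostly that of 1 cell. Faslg, the death ligand of cytotoxic cells, was at 140.2 and 227 CPM against 1.47 and 3.20, and the receptor Cd244 at 320.4 and 317 CPM against 1.47 and 5.33. Klri1 belongs to the killer-cell lectin-like receptors, whose near-identical members can share reads, so its value is uncertain.

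The BCL2 family as a whole, 12 genes measured, summed to 551 and 707 CPM against 266 and 321. Bcl2, which blocks mitochondrial cell death, was at 110.1 and 109 CPM against 1.28 and 1.78, a ratio of 85.8 (39.3 to 173) and 61.4 (25.4 to 194). Its relative Bcl2a1 was at 210.2 and 176 CPM against 1.61 and 7.10. Only 3 of the 12 were abundant enough to compare, and both Bcl2 and Bcl2a1 were so through the selected cells alone.

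The 20 genes of lymphocyte trafficking measured summed to 641 and 891 CPM against 124 and 182, and 4 of them were abundant enough to compare. Itgb1, the most abundant in cycling epithelial cells, had ratios of 0.920 (0.420 to 1.75) and 0.868 (0.687 to 1.09). The chemokine receptor Ccr9 was at 200.2 and 151 CPM against 1.14 and 4.26. The integrin subunit Itgb7, which pairs with Itgae or Itga4, was at 120.1 and 261 CPM against 0.880 and 12.4. The epithelium carried the partner of Ccr9: the chemokine Ccl25 was at 437 and 301 CPM in cycling epithelial cells and 10.9-fold and 42.8-fold lower in the selected cells.

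Epithelial genes outside the selection limit were low, which follows from a split on epithelial UMIs and is given as description. All 25 measured summed to 6688 and 2522 CPM against 37663 and 49150. Of the 21 compared, 17 were past 4-fold (medians -2.46 and -4.91). With the cycling limit applied after thinning, 10 of 21 were (-1.89 and -3.95). Fabp1 stood at 2163 and 366 CPM in the selected cells against 14414 and 15995, which is 6.67-fold (5.83 to 7.65) and 43.7-fold (39.1 to 49.0) lower. The apolipoprotein Apoa1 was at 1732 and 709 CPM against 8558 and 12293. Villin, encoded by Vil1, was at 70.1 and 23.5 CPM against 488 and 1347. Hnf4a, a transcription factor of the intestinal epithelium, had 0 UMIs in rat 1, at least 4.83-fold lower against the floor of 3 counts. In rat 2 it had 2 UMIs, which is 64.5-fold lower (17.7 to 534) by the counts as they stand, without that floor.

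Ranked by the smaller change of the 2 rats, the first 10 of the lower genes were Gpx2, Anpep, Lypd8, Clca1, Cldn3, Creb3l3, Atp1b1, Lgals2, Ccl25 and Krtcap3. Gpx2, a glutathione peroxidase of crypts, was at 30.0 and 5.86 CPM against 553 and 423. The goblet cell protein Clca1 was at 80.1 and 3.52 CPM against 1125 and 1029. Of the 4 epithelial genes not past the limit, Cdh1 was 2.98-fold and 12.4-fold lower, Spint2 3.98-fold and 8.35-fold and Cdh17 1.42-fold and 3.86-fold. Ezr, which links actin to membranes in many cell types, was level, at 270.3 and 288 CPM against 227 and 274. Slc12a2, a chloride transporter of crypt cells and the only gene of the crypt list to be compared, was 4.46-fold (2.05 to 12.1) and 6.36-fold (3.58 to 12.5) lower.

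**Figure D3:**
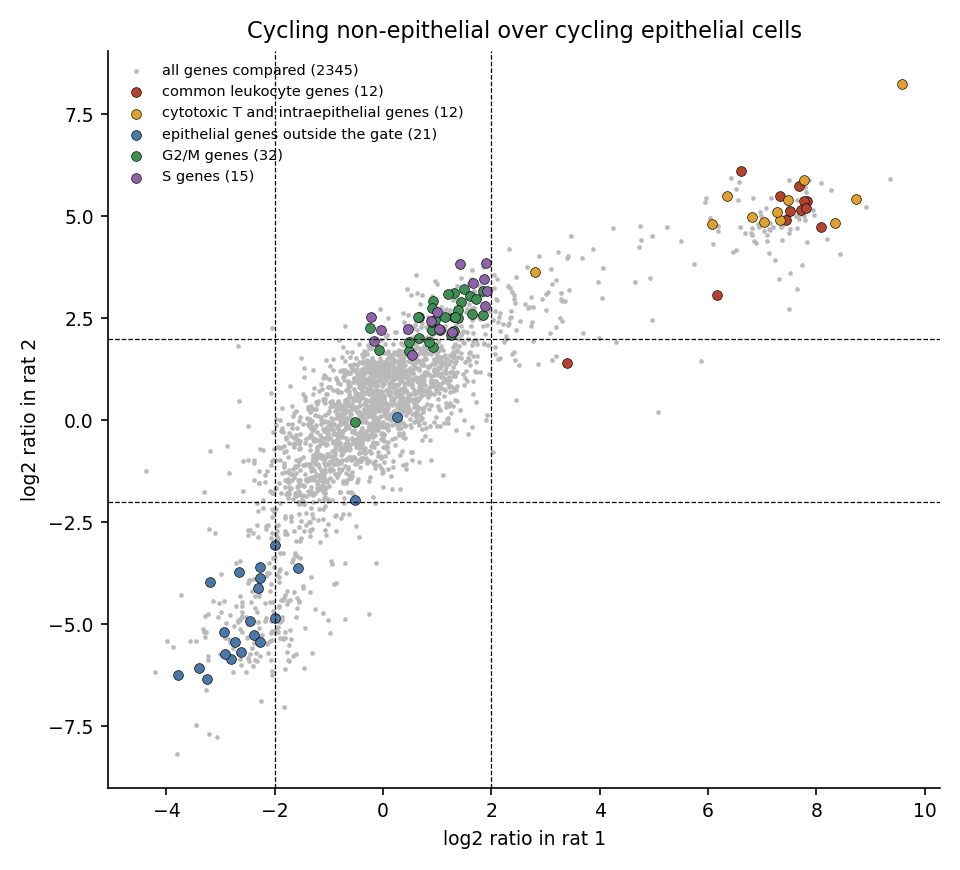
Log2 ratio of CPM in cycling non-epithelial over cycling epithelial cells in rat 1 (x axis) and rat 2 (y axis) for the 2345 genes compared, with counts under 3 raised to 3 and dashed lines at 4-fold. At the upper right lie 11 of 12 leukocyte and 12 of 12 cytotoxic genes past both lines, and at the lower left 17 of 21 epithelial genes, while none of the 15 S and 32 G2/M genes is past both. Genes scarce in cycling epithelial cells reach the level for comparison only through the selected cells. The leukocyte and cytotoxic counts are therefore largely set by that level and are description.

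Cell cycle genes were above the epithelium without passing 4-fold in both rats. Of 32 G2/M genes compared, 29 were higher in both rats (medians 1.11 and 2.53), and of 15 S genes 12 were (1.04 and 2.54), while of all 2345 genes 958 were. Hmgb2, a chromatin protein that peaks before mitosis, was at 2693 and 4180 CPM against 1379 and 766. Pcna, the sliding clamp of DNA replication, was at 280.3 and 462 CPM against 116 and 104. The same number of Mki67 and Top2a UMIs asks for a larger share of a small library than of a large one. With the cycling limit applied after thinning to 2000 UMIs the medians were 0.56 and 0.72 for G2/M genes and 0.70 and 1.49 for S genes, against -0.14 and 0.08 for all genes, so the difference was smaller in both rats and kept its direction.

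Phase scores, computed without Mki67 and Top2a on thinned cells, put 18 of 31 cells of rat 1 (58.1%, 39.1 to 75.5) and 73 of 112 of rat 2 (65.2%, 55.6 to 73.9) in G2/M. The cycling epithelial shares were 52.5% (49.9 to 55.1) and 29.4% (21.0 to 38.8). These shares depend on the selection, since Mki67 and Top2a are themselves G2/M genes. With the cycling limit applied after thinning they were 65.4% (44.3 to 82.8) and 75.3% (65.0 to 83.8), against 79.6% (75.7 to 83.2) and 12 of 20 cells in cycling epithelium, so no difference in phase is read from them. Unthinned, the G2/M shares were 48.4% and 67.0% for the selected cells and 51.6% and 30.3% for cycling epithelial cells. S calls were also common in non-cycling leukocytes, 36.4% and 45.8%, so phase calls alone were not read as cycling.

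Glycolytic genes lay below the cycling epithelium. All 7 compared were lower in both rats with none past 4-fold (medians -0.85 and -0.72), and this was so under all 4 scalings. Of all 2345 genes, 848 were lower in both. Ldha, which makes lactate, was at 1011 and 995 CPM against 2871 and 4059, and Gapdh at 320.4 and 876 CPM against 555 and 1446. With the cycling limit applied after thinning, the median was -0.73 in rat 1 and -0.08 in rat 2, and 1 gene was higher in both rats.

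MHC class II genes parted the rats. Cd74, the invariant chain, was at 50.1 CPM in rat 1 and 932 in rat 2, against 319 and 265 in cycling epithelial cells. RT1-Da, a class II alpha chain, had 0 UMIs in rat 1 and 482 CPM in rat 2. In rat 2, 781 of the 795 Cd74 UMIs were in the 9 B-like cells, a class not found among the selected cells of rat 1.

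Cycling and non-cycling cells were also compared within the T-like class. Cycling T-like cells (13 and 64) were set against 195 and 1092 non-cycling T-like cells, at medians of 2676 and 7247 UMIs against 2326 and 3679.5. The non-cycling cells were chosen for a Ptprc UMI, while the cycling cells were not and had one in 11 of 13 and 61 of 64. The classes were not alike in rat 2, where 71.9% of cycling but 93.2% of non-cycling T-like cells had a Cd3d or Cd3e UMI. Of 2346 genes compared, 65 were past 4-fold higher (2.77%) and 0 lower (0%). Cycling T-like cells of rat 1 summed to 39242 UMIs against 490867 in non-cycling ones, and counts under 3 were raised to 3. A gene of modest level could thus pass the limit upward but not downward. The 0 lower is in part set by this rule and is given as description. Rat 1 alone gave 141 higher and rat 2 alone 122 higher. The median log2 ratio over all genes was 0.26 and 0.03.

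Genes of mitosis made up much of the difference. Of 28 G2/M genes compared, 22 were past 4-fold (medians 4.12 and 4.99), as were 3 of 13 S genes (1.71 and 1.98). Cenpf, a kinetochore protein, was at 586 and 987 CPM against 4.07 and 3.72. The mitotic kinase Cdk1 was at 357 and 337 CPM against 6.11 and 3.48, a ratio of 58.4 (16.3 to 317) and 96.9 (57.2 to 177). Tpx2, which organises the spindle, was at 433 and 366 CPM against 0 and 3.02, at least 70.9-fold higher in rat 1 and 121-fold (69.3 to 232) in rat 2. Since Mki67 and Top2a split these cells, higher levels of their partners in mitosis follow the selection and are given as description.

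Other genes among the first 10, ranked the same way, were Spc24, Nuf2, Sgo2 and Bub1 of the kinetochore and its checkpoint, Nusap1 of the spindle, Pclaf, which binds Pcna, and Ube2c, which marks mitotic proteins for destruction. Ube2c was at 586 and 781 CPM against 18.3 and 0.929. The more abundant Hmgb2 rose from 304 and 257 CPM to 2956 and 3994, a ratio of 9.74 (7.57 to 12.5) and 15.5 (14.4 to 16.7). The S genes past the limit were Pcna, Rrm1 and Uhrf1. Pcna was at 357 and 498 CPM against 85.6 and 70.8, ratios of 4.17 (2.10 to 7.79) and 7.03 (5.93 to 8.32). With T-like cells placed by Cd3d and Cd3e alone the Pcna ratio in rat 1 was 3.27 (1.39 to 6.91), so it was no longer past the limit. Among cyclins, kinases and inhibitors, 4 of 7 passed: Ccna2, Ccnb1, Cdk1 and Cdkn3.

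No cytotoxic gene of T-like cells passed the limit. Of 16 compared, 9 were lower and 4 higher in both rats (medians -0.15 and -0.32), while of all 2346 genes 542 were lower and 988 higher in both. None of the 7 T-cell genes outside the placing list was past 4-fold. Gzma was at 2574 and 4634 CPM against 3194 and 5729, ratios of 0.806 (0.652 to 0.986) and 0.809 (0.775 to 0.844). With T-like cells placed by Cd3d and Cd3e alone the Gzma ratios were 0.393 (0.274 to 0.547) and 0.644, so the level in rat 1 depends on the placing. Nkg7, a granule protein, was at 280.3 and 629 CPM against 309.7 and 565. Cd8a was at 815 and 721 CPM against 982 and 1189.6, ratios of 0.830 (0.562 to 1.19) and 0.606 (0.544 to 0.674).

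Ccl5 was lower in cycling T-like cells of both rats, short of 4-fold. It was at 3134 and 3795 CPM in cycling against 7884 and 10084 in non-cycling T-like cells, ratios of 0.398 (0.329 to 0.476) and 0.376 (0.360 to 0.394). Ccnd2, the D-type cyclin of G1, was at 204 and 168 CPM against 438 and 448, ratios of 0.465 (0.198 to 0.934) and 0.374 (0.298 to 0.464). With T-like cells placed by Cd3d and Cd3e alone, the Ccl5 ratios were 0.316 and 0.320 and those of Ccnd2 0.297 and 0.339. Both genes are in the lists, but were singled out after their values were seen.

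Bcl2 and Xcl1 had less certain ratios between cycling and non-cycling T-like cells. Bcl2 was at 127 and 114 CPM against 175 and 285, ratios of 0.727 (0.230 to 1.76) and 0.400 (0.302 to 0.519). Xcl1 had ratios of 1.01 (0.585 to 1.63) and 5.09 (4.67 to 5.54), but the single cell with 650 UMIs held 73.9% of the UMIs of cycling T-like cells in rat 2. Whether these ratios differ between the rats was not tested.

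**Figure D4:**
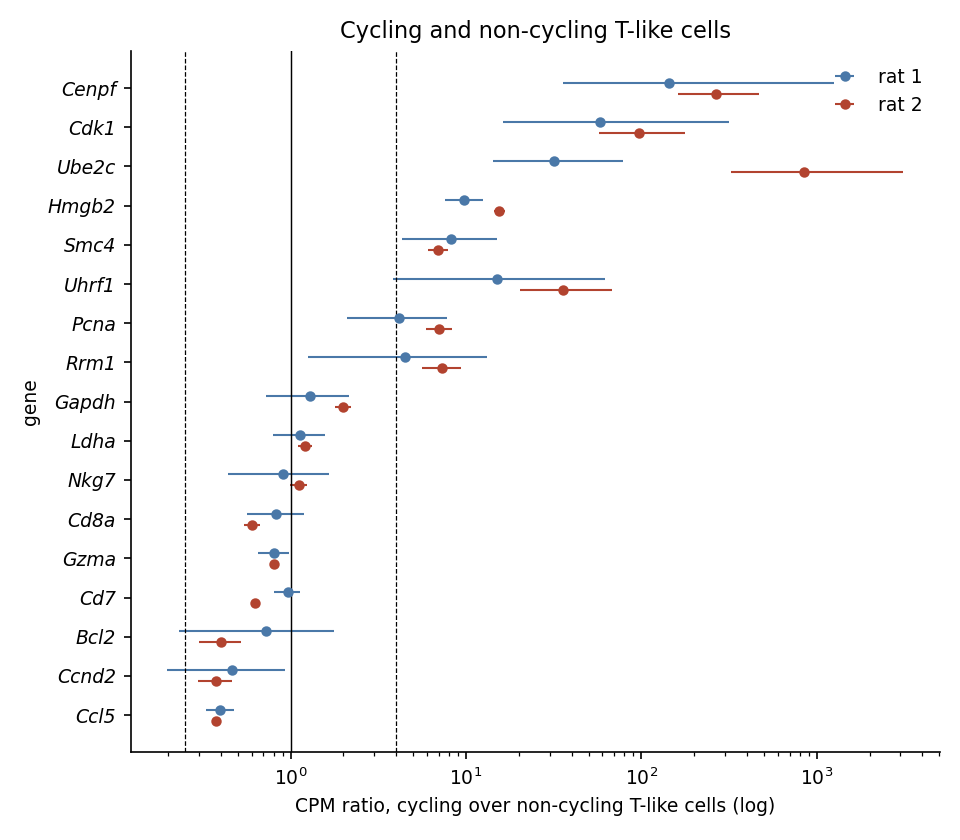
Ratio of CPM in cycling over non-cycling T-like cells (x axis, log scale) for 17 genes in rat 1 and rat 2, with exact 95% counting intervals as bars and dashed lines at 4-fold. Genes of mitosis and replication lie to the right, Gzma, Nkg7 and Cd8a lie between 0.606 and 1.11, and Ccl5 and Ccnd2 lie between 0.374 and 0.465 in both rats.

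The unplaced cells, 13 in rat 1 and 33 in rat 2, shared Gzma with the T-like cells and differed in Cd8a beside the genes that place T cells. A Gzma UMI was present in 11 of 13 and 32 of 33, with at least 10 Gzma UMIs in 10 and 28. The unplaced and T-like cells of rat 1 summed to only 42149 and 39242 UMIs. With counts under 3 raised to 3, only genes well above the level for comparison could pass 4-fold in either direction. Of 2298 genes compared with cycling T-like cells, 0 were past 4-fold higher (0%) and 4 lower (0.174%): Cd3e, Cd3g, Cd3d and Cd8a. The first 3 were used in the placing and are no finding. Cd8a was not used, and was at 94.9 and 29.0 CPM against 815 and 721, 8.59-fold (3.05 to 33.4) and 24.9-fold (10.6 to 77.0) lower. As a co-receptor of T cells it can follow a split on the CD3 genes, so its lower level is also given as description.

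Of 16 cytotoxic genes, 10 were higher in the unplaced cells in both rats and 3 lower, none past 4-fold (medians 0.39 and 0.38). Of all 2298 genes, 489 were higher in both (medians -0.10 and 0.00). Gzma was at 6524 and 8464 CPM against 2574 and 4634, ratios of 2.53 (2.01 to 3.22) and 1.83 (1.71 to 1.95). Gzmb was at 498 and 1375 CPM against 204 and 897, ratios of 2.44 (1.04 to 6.38) and 1.53 (1.31 to 1.80). Prf1, which encodes perforin, had ratios of 3.26 (0.620 to 32.1) and 2.45 (1.81 to 3.30), the former with an interval that includes 1. The receptor Klri1 had ratios of 3.26 (1.02 to 13.6) and 2.92 (2.06 to 4.14).

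Cd7 went the other way, at 1139 and 1949 CPM against 3669.5 and 3604. Lck was at 261 and 389 CPM against 433 and 561. Cd247, at 214 and 128 CPM against 357 and 351, was used in the placing, so its lower level is no finding. Cycling epithelial cells held at most 7.81 CPM of Cd247 and 14.6 CPM of Lck.

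Markers of natural killer and innate lymphoid cells were counted in unplaced cells with no UMI of Cd3d, Cd3e or Cd3g, 10 in rat 1 and 28 in rat 2. In rat 2, Klrd1 was seen in 11 cells, the killer receptor Ncr1 in 5, Klrb1 in 4 and the interleukin 7 receptor Il7r in 1. Klrd1 was seen in 2 cells and Klrb1 in 1 of rat 1, with Ncr1 and Il7r in 0. In 519 non-cycling unplaced cells of rat 2 with no CD3 UMI, Klrd1 was seen in 207, Ncr1 in 107, Klrb1 in 21 and Il7r in 2. In 18 such cells of rat 1, Klrd1 was seen in 1, Ncr1 in 2, Klrb1 in 2 and Il7r in 0. With only 2 of the 4 markers seen in the selected unplaced cells of rat 1, the class was not named.

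The 9 B-like cells were deeper than the other classes of rat 2 at the median. They held 4409 to 21367 UMIs (median 11157), against medians of 7247 in T-like and 4702 in unplaced cells. Cd79b, a chain of the B-cell receptor, and Ms4a1, which encodes CD20, were seen in 9 of 9, but they were among the genes that placed these cells. With fewer than 10 cells only counts are given, beside those of 129 non-cycling B-like cells of the same rat, which were shallower at a median of 2549 UMIs. Summed UMIs were 104194 in the 9 cells and 378589 in the 129.

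Germinal centre genes, none of which entered the placing, were mixed. A UMI of Bcl6, Mef2b, S1pr2 or Rgs13 was present in 8 of 9 cells against 23 of 129, and thinned in 7 against 14. Of 21 genes of the list, 13 were seen in a larger share of the 9 cells than of the 129 after thinning and 8 in a smaller share. No count over all genes stands beside this tally, and it includes sparse genes such as Bcl6 and Rgs13. It is therefore given as description and not read as a result about the list. Mef2b, a transcription factor that drives Bcl6, had 28 UMIs in 8 cells against 22 in 9 of 129. S1pr2, the receptor that keeps B cells in the follicle, had 19 UMIs in 7 cells against 8 in 7. Bcl6, the central repressor of the germinal centre programme, had 17 UMIs in 8 cells against 17 in 13 of 129, and Rgs13 18 in 4 against 19 in 10.

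After thinning to 2000 UMIs, Mef2b was seen in 5 of 9 cells against 4 of 129, S1pr2 in 4 against 3, and Bcl6 and Rgs13 in 1 each against 8 and 5. At that depth Bcl6 and Rgs13 were too sparse to compare.

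Other genes of the germinal centre list went both ways. The GTPase Nuggc had 32 UMIs in 5 cells against 2 in 2 of 129, the factor Mybl1 23 in 6 against 6 in 3, and the abasic-site protein Hmces 34 in 8 against 13 in 7. Thinned, they were seen in 2, 3 and 3 of 9 cells against 1, 2 and 4 of 129. Lmo2 had 11 UMIs in 4 cells against 83 in 54 and Stap1 6 in 2 against 81 in 56, and thinned each was seen in 1 of 9 against 43 and 41.

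Genes of the light zone, where germinal centre B cells are selected by T cells, were counted in the same way. After thinning, 10 of 12 were seen in a smaller share of the 9 cells and 2 in a larger share. Here too no count over all genes stands beside the tally and no test was made, so it is description only. Myc had 0 UMIs in 9 cells against 33 in 22 of 129, Cd40 2 UMIs in 1 cell against 87 in 53, and Cd69 2 in 2 against 89 in 49. Cd83 had 22 UMIs in 8 cells against 343 in 91, Traf1 8 in 6 against 15 in 15, and Cd86 6 in 5 against 8 in 8. Thinned, Cd83 and Traf1 were seen in 2 of 9 cells each against 84 and 9 of 129, and Cd40, Cd69, Cd86 and Myc in 0 against 43, 39, 5 and 16. The examples of both lists named here were chosen after their values were seen.

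Cxcr4, the receptor of the dark zone where the cells divide, was seen in 9 of 9 cells with 41 UMIs, and in 92 of 129 with 310. Thinned, Cxcr4 was seen in 5 of 9 against 85 of 129. Pou2af1, a coactivator of B-cell transcription, was seen in 9 of 9 cells with 48 UMIs against 105 UMIs in 57 of 129, and thinned in 7 against 48. Bcl2 had 1 UMI in 1 of 9 cells and 37 UMIs in 30 of 129.

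The B-like cell with 8933 UMIs stood apart. It had 0 UMIs of Bcl6, Mef2b, S1pr2 and Rgs13, 57 UMIs of Gzma, and 6 of Cd79b. Another of the 9 held 2 Cd3d and 3 Cd3g UMIs beside 20 of Cd79b. Neither was marked by Scrublet, which did not work in this rat, and a doublet of a B cell with a cytotoxic cell was not tested for either.

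**Figure D5:**
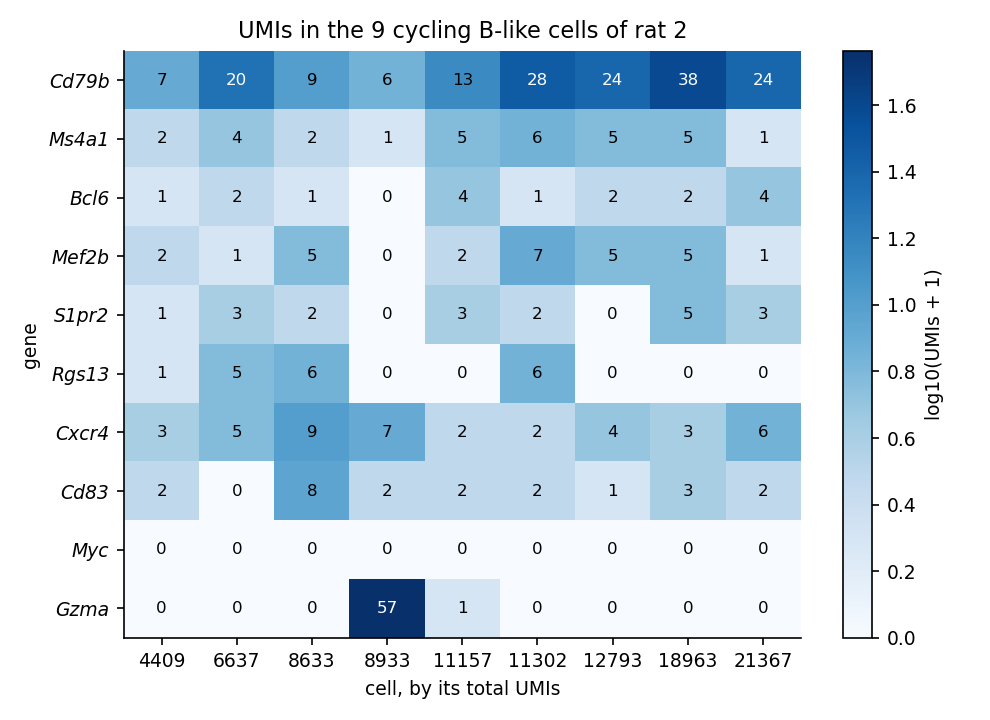
UMIs of 10 genes (rows) in each of the 9 cycling B-like cells of rat 2 (columns, ordered by total UMIs from 4409 to 21367), with colour as the log10 of UMIs plus 1. Bcl6 and Mef2b are present in 8 cells, Myc is at 0 in all 9, and the cell with 8933 UMIs has 57 UMIs of Gzma and none of Bcl6, Mef2b, S1pr2 and Rgs13.

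The last class was set by hemoglobin and was not uniform. Hemoglobin made up 19.5% to 57.1% of the UMIs of 7 cells, 5 in rat 1 and 2 in rat 2. Of these, 5 had 164 to 457 detected genes and exactly 2 UMIs of Mki67 and Top2a, at the limit. The other 2 had more genes and more cycling UMIs: 1181 genes and 12 UMIs in a cell of rat 1 with 30 Gzma UMIs, and 2995 genes and 40 UMIs in a cell of rat 2 with 73 Gzma UMIs and UMIs of Cd3d, Cd3e and Cd8a. Hba-a1, an alpha globin, was at 43491 and 5014 CPM in the selected cells of the rats, against 218 and 535 in cycling epithelial cells. A single cell held 1362 of the 4344 Hba-a1 UMIs of rat 1 and another 2140 of the 4276 of rat 2.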

How the data were processed

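Single-cell 3′ libraries of jejunal epithelium from 2 rats were used, 1 per rat. Per the file headers, Cell Ranger 3.1.0 (rat 1) and 5.0.1 (rat 2) made the UMI counts, which the authors deposited as matrices of whole numbers. From these counts, cells were selected, summed within each rat and scaled to CPM. Cells with over 2000 UMIs had a median of 11287 UMIs in rat 1 and 4896 in rat 2 within the mitochondrial limit. A gene was compared at a mean of at least 50 CPM in each rat and past the limit at 4-fold in both rats, with counts under 3 raised to 3. Gate and mitochondrial genes were left out of these comparisons. Shares have exact Clopper-Pearson intervals and ratios exact conditional binomial intervals. No test was made, since measured values of the same cells split the groups. Classes with fewer than 10 cells in a rat are given as counts. The genes named are those of marker lists, with examples by level or role, and the first 10 genes past the limit in each direction, ranked by the smaller of the 2 rats' absolute log2 ratios. Some listed genes are not reported. Members and lists were chosen with earlier results of these data known. Alternatives changed the cell limits, lineage rule, fold, level and scaling, and those on thinning, hemoglobin and stricter T placing were added after seeing the data. Tools were Python 3.11.15, numpy 2.4.6, scipy 1.17.1, pandas 2.3.3, scanpy 1.11.5 (Scrublet, phase scores), matplotlib 3.10.9, R 4.3.3 and edgeR 4.0.16 (TMM).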

Additional observations from a re-analysis of the deposited data

How the results depend on the processing

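With 1 library per rat, intervals cover counting error only, and animal, library and software release cannot be told apart. Depth limits rat 1 most, where the selected cells had a median of 2773 UMIs. Ratios were taken within each rat, and no paired test was made. Over 19 settings, 93 of 134 values of the main results kept within their limits and 41 moved. These are counts and shares, for which a reversal was not scored. For 32 named genes over 14 settings, 394 of 448 log2 ratios kept within their limits, 54 moved and 0 reversed. A count was taken as kept within 1.5 times, a share within its interval and a log2 ratio within the standard deviation between the rats. With 1 rat left out, a log2 ratio always lies within that standard deviation of the mean over the rats. Such values could not count as moved and are no test of stability. Genes named for their large ratios were also unlikely to reverse. The counts for log2 ratios are therefore given as description. The cause of the moves was not tested.

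At a minimum of 5000 UMIs the selected cells numbered 3 in rat 1 and 72 in rat 2, or 0.214% and 40.9% of cycling cells. The Ptprc share in rat 2 was then 97.2%, T-like cells were 0% in rat 1, unplaced cells 66.7% and 19.4%, and genes past 4-fold in rat 2 alone 445 higher and 424 lower. A mitochondrial limit of 20% gave a share of 62.3% in rat 2. With Mki67 and Top2a at 4 UMIs or more, rat 1 had 11 cells, the shares of cycling cells were 1.26% and 72.5%, the Ptprc share in rat 1 was 81.8%, and 55 genes were lower. The limit of 10 epithelial UMIs scaled to each cell's depth left 13 cells in rat 1 (0.885%) and 85 genes lower. The cycling limit after thinning, added after seeing the data, gave shares of 5.23% and 81.7% and 65 genes lower.

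In rat 2, unplaced cells were 19.6% when a lineage needed 2 UMIs. T-like and unplaced cells were 43.8% and 44.6% when it needed 5, and 38.4% and 48.2% with Cd3d and Cd3e alone, also added after seeing the data. A fold of 2 gave 377 genes higher and 427 lower, a mean of 10 CPM 540 higher, and TMM 260 lower.

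Leaving out 1 rat at a time, the selected cells ranged from 31 to 112, their share of cycling cells from 2.11% to 50.7%, the Ptprc share from 61.3% to 92.0% and the T-like share from 41.9% to 57.1%. Genes higher ranged from 229 to 450 and lower from 205 to 422, and genes higher in cycling than in non-cycling T-like cells from 122 to 141.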

Other observations

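The 36 lineage transcription factors measured summed to 681 and 1440 CPM in the selected cells against 1474 and 1468 in cycling epithelial cells. Ikzf3, a lymphoid factor, was at 100.1 and 196 CPM against 0.807 and 5.68. Cdx2, an intestinal factor, was past 4-fold lower, with 4 UMIs in rat 1 and 1 in rat 2.

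Kit had 11 UMIs in the selected cells of rat 1 and 67 in those of rat 2, while the mast cell genes Hdc, Mcpt2, Gata2, Tpsab1 and Tpsb2 had 0 in both.

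The 3 mixed cells of rat 2 held 2, 4 and 5 UMIs of Cd247, 2, 3 and 4 of Prdm1, and 52, 36 and 45 of Gzma. The cell placed by Prdm1 alone held 3 Prdm1 UMIs, 1 of Cd247 and 36 of Gzma.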
